A study of Mus musculus with 6 samples.

Results

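Bone morphogenetic protein (Bmp) signaling and its Id target genes were followed through 10 transcripts: the inhibitor of DNA binding genes Id1, Id2, Id3 and Id4, the ligands Bmp4 and Bmp7, the type I receptor Bmpr1a, the inhibitory Smads Smad6 and Smad7, and the extracellular antagonist Nog (noggin). They were chosen by name, with earlier results of these data known, and all 10 were among the 17920 genes listed in the count table. Cells from mouse cortex at E13.5 (the embryonic day) were profiled by RNA-seq in 3 libraries labelled WT and 3 labelled KD, to ask how the transcriptome changes when Ybx1, a protein that binds RNA carrying 5-methylcytosine, is depleted. According to the methods of the study the cells were dissociated cortical cells in culture. They were infected with pLKO.1-Puro lentivirus that encodes an shRNA, a hairpin that silences its target, directed to Ybx1 in KD and a control hairpin in WT, and both groups were exposed to puromycin, which kills cells without the virus. The methods list more than 1 hairpin against Ybx1 and do not say which gave these libraries, the mouse strain of the cultures was not stated, and an antibiotic marker does not tell how many cells of each type survived.

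Each library held between 16294635 and 16497505 estimated counts. Ybx1 itself fell from 629 ± 21.0 to 116 ± 36.8 normalized counts (CPM, counts on a scale of 1000000 per library; mean ± SD, n = 3 libraries per group throughout), with no overlap between the groups. Markers of cortical progenitors and neurons were present in all 6 libraries, and so were genes of the ventral telencephalon such as Dlx1, Gad1 and Lhx6, whose summed level was 624 to 960 CPM in WT and 652 to 982 CPM in KD for a list of 7 genes, of which Dlx2 and Gsx2 were higher in KD and 5 did not pass. Y-linked transcripts were nearly missing from the libraries numbered 2 in both groups (0.864 CPM in WT and 2.197 CPM in KD, against 73.9 CPM or more in the other libraries), so the results were also computed without this pair.

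Bmp ligands bind a complex of type I and type II receptor kinases at the cell surface, which phosphorylate the receptor-activated Smad proteins. These join Smad4, enter the nucleus and raise the transcription of target genes, among which the Id genes are the classical direct ones. Id proteins are helix-loop-helix proteins without a DNA-binding region: they capture the E proteins that proneural basic helix-loop-helix (bHLH) factors need as partners. In the embryonic forebrain they are known for keeping progenitors undifferentiated, and Bmp ligands are known as dorsal midline signals. Smad6 and Smad7 are induced by the same pathway and inhibit it, and noggin holds the ligands outside the cell.

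To show what the control regions of these genes look like, promoter sequence was taken from RefSeq (GRCm38.p6) for 6 of the 10 genes. It ran from 250 bases before to 4 bases after the transcription start. The promoters of Id1, Bmp7, Smad7 and Nog were not searched, so nothing is said of motifs there. Printed 5′ to 3′ on the gene's strand are the promoters of Id2, the most abundant Id transcript, of Id4, the Id transcript that rose, of Id3, which did not pass the test, and of Smad6, which held a palindromic Smad box. Capitals mark exact matches to GTCTAGAC, the palindromic Smad box, GGCGCC, a GC-rich site that Smad proteins can bind, and CAGCTG or CACGTG, E-boxes of the kind bound by bHLH factors.
Id2 (chr12:25096089-25096342, minus strand): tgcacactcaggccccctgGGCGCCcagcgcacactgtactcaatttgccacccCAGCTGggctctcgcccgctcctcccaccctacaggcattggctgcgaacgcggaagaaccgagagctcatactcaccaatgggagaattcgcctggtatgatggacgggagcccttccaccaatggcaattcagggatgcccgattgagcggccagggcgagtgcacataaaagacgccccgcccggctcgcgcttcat
Id3 (chr4:136143572-136143825, plus strand): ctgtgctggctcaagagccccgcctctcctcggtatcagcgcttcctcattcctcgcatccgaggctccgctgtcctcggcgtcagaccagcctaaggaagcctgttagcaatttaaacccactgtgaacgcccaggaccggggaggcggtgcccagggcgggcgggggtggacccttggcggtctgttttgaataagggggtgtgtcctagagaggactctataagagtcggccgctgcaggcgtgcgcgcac
Id4 (chr13:48260866-48261119, plus strand): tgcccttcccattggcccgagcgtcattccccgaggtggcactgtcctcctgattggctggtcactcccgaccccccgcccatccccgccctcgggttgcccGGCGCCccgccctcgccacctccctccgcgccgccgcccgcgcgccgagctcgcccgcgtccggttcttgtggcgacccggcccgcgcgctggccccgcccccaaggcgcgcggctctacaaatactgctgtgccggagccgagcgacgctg
Smad6 (chr9:64022056-64022309, minus strand): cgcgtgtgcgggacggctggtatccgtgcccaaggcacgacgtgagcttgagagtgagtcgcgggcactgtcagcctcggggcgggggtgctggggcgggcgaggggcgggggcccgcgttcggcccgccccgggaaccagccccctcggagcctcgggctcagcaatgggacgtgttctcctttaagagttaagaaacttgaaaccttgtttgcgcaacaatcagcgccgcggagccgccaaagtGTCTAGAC

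The Id2 promoter held GGCGCC, starting at position -231, and CAGCTG, starting at position -196, counted from the transcription start. The Id4 promoter held 1 GGCGCC at -148, and Id3 held none of the 4 motifs in this window. Smad6 held GTCTAGAC at -4, across the start itself. Of the promoters searched but not printed, Bmpr1a held GGCGCC at -198 and Bmp4 held CACGTG at -188. The Bmpr1a window (chromosome 14, 34502543 to 34502796, minus strand) lies inside the gene span, which ends at 34503336. Its start is therefore not the outermost end of that gene. All 4 motifs read the same on both strands and none of the matches overlapped another. Over 32851 mouse promoters of the same length, 0.17% held GTCTAGAC, 9.68% held GGCGCC, 13.2% held CAGCTG and 6.15% held CACGTG. These matches are descriptions of letters and were not tested for binding.

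Of the 10 genes, 8 passed the filter on low counts and were tested among 13669 genes. Id4, Bmpr1a and Smad7 rose in KD, Bmp7 fell, and Id1, Id2, Id3 and Nog did not pass the threshold. Bmp4 and Smad6 had too few counts for the test. Thus 3 of 8 were higher, where 12% of all genes tested were higher, and 1 of 8 was lower, where 11.9% of all genes tested were lower. In either direction the share was 50% of these 8 genes against 24.0% of all genes tested. The libraries of the 2 groups did not overlap for 6 of the 8 genes (75%), against 41.6% of all genes tested. The median log2 fold change (KD minus WT) of the 8 was 0.10, beside -0.0013 for all genes tested. With 3 libraries against 3, an exact permutation test of a single value cannot go below p = 0.1, so the calls rest on the edgeR fit across all genes.

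**Figure D1:**
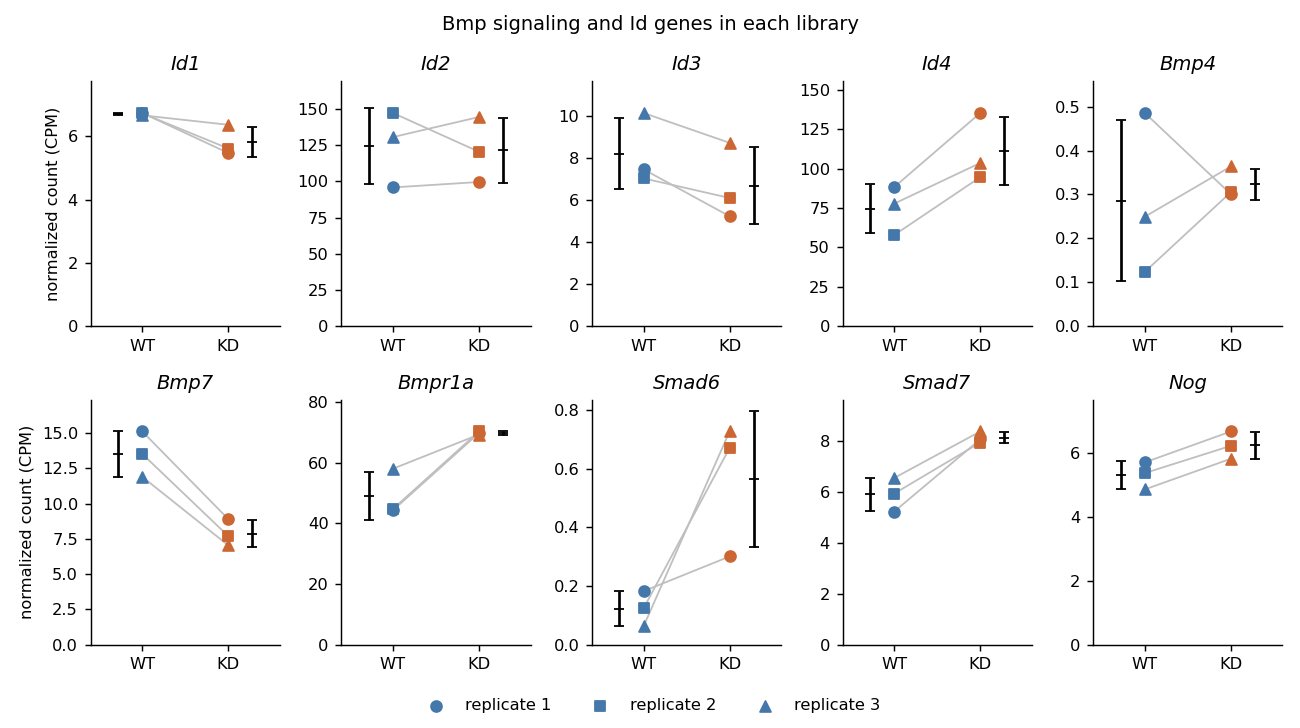
Normalized counts (CPM, linear axes from 0) of the 10 genes in each WT library (blue) and KD library (orange); the marker shape gives the replicate number, grey lines join libraries with the same number, and bars give the mean ± SD of 3 libraries. Bmpr1a, Smad7 and Id4 lay higher in all 3 KD libraries than in any WT library, Bmp7 lay lower, and Id2, Id3 and Bmp4 overlapped.

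The Id genes did not change together. Id4 (Entrez 15904, chromosome 13, 48261116 to 48266028), an Id gene known in neural progenitors and in cells of the glial lineage, had 88.3, 57.8 and 77.8 CPM in WT replicates 1, 2 and 3, and 135.4, 94.6 and 103.7 CPM in KD. Every KD library was above every WT library. The mean rose from 74.6 ± 15.5 to 111 ± 21.4 CPM, or 1.49 times, and the log2 fold change was 0.58 ± 0.16 (SE; adjusted p = 0.0346, edgeR). Within the pairs of libraries that share a number the log2 difference was 0.62, 0.71 and 0.41. In fits that did not use these pairs the call was close to the threshold. It was lost with DESeq2 (adjusted p = 0.0590), in limma on log2(TPM + 1) with no filter (adjusted p = 0.0640) and when 1 of 4 libraries was left out. Those were WT replicate 2 (log2 0.42, adjusted p = 0.0996), WT replicate 3 (0.61, adjusted p = 0.0590), KD replicate 1 (0.41, adjusted p = 0.0951) and KD replicate 3 (0.63, adjusted p = 0.0547). Without both libraries numbered 2 it was 0.53 (adjusted p = 0.104). With the replicate number in the fit (the replicate block), it was 0.58 ± 0.06 (adjusted p = 6.74e-06, edgeR). Over all alternatives the adjusted p ranged from that value to 0.104 and the log2 fold change from 0.41 to 0.71.

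Id2 (Entrez 15902, chromosome 12, 25093799 to 25096092), which is expressed in progenitors and in differentiating cortical neurons, had 95.8, 147.3 and 130.7 CPM in WT and 99.6, 120.5 and 144.6 CPM in KD. The 2 groups covered nearly the same range. The means were 125 ± 26.3 and 122 ± 22.5 CPM, with a log2 fold change of -0.04 ± 0.16 (adjusted p = 0.897, edgeR) and a 95% interval from -0.41 to 0.34. That interval, from the fit without the replicate block, leaves room for a moderate change in either direction. With the replicate block the log2 fold change was -0.03 ± 0.07 (adjusted p = 0.759, edgeR). The sign of this small difference was not stable, since it turned to 0.10 on the log2 scale when WT replicate 2 was left out, to 0.0003 for WT replicate 3 and to 0.09 for KD replicate 1.

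Id1 (Entrez 15901, chromosome 2, 152736251 to 152737410), with Id3 the Id gene most often used as a readout of Bmp signaling, had 6.74, 6.73 and 6.66 CPM in WT and 5.47, 5.61 and 6.36 CPM in KD. All KD libraries were below all WT libraries, but the spread within KD was wide beside the gap. The means were 6.71 ± 0.0399 and 5.82 ± 0.480 CPM, the log2 fold change was -0.21 ± 0.12 and the adjusted p was 0.250 (edgeR, 95% interval from -0.48 to 0.07). Id3 (Entrez 15903, chromosome 4, 136143822 to 136145392) had 7.47, 7.04 and 10.15 CPM in WT and 5.23, 6.10 and 8.73 CPM in KD. The groups overlapped, although the KD library was the lower one in each numbered pair, by -0.51, -0.21 and -0.22 on the log2 scale. The log2 fold change was -0.30 ± 0.21 (adjusted p = 0.342, edgeR, 95% interval from -0.78 to 0.18). Single libraries moved this value to -0.12 (WT replicate 3 left out), -0.15 (KD replicate 1) or -0.53 (KD replicate 3). Neither Id1 nor Id3 passed the threshold under any of 18 alternatives. The smallest adjusted p was 0.193 for Id1, and 0.0763 for Id3 in the fit with the replicate block.

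On a scale that divides by transcript length (TPM), which allows levels to be compared between genes, Id2 made up most of the Id transcripts. Its WT level was 253 ± 52.5 TPM, at percentile 96.6 of the genes listed, followed by Id4 at 40.4 ± 8.64, Id3 at 24.8 ± 5.46 and Id1 at 20.6 ± 0.336 TPM. Id4 was above Id3 within each WT library. Their ranges overlapped only between different libraries, at 30.92 TPM for Id4 in WT replicate 2 and 31.07 TPM for Id3 in WT replicate 3. In KD the levels were 256 ± 44.4 TPM for Id2, 62.4 ± 12.4 for Id4, 20.9 ± 5.43 for Id3 and 18.6 ± 1.31 for Id1. Summed over the 4 genes, Id transcripts came to 285, 368 and 364 TPM in WT and 322, 348 and 404 TPM in KD. These sums, 339 ± 46.6 and 358 ± 42.0 TPM, overlapped (two-sided exact permutation p = 0.7).

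Id4 held 12.3 ± 4.198% of the summed Id TPM in WT and 17.8 ± 5.25% in KD, shares that overlapped between groups (exact permutation p = 0.3). The share of Id2 was 74.2 ± 6.12% and 71.2 ± 4.87% (p = 0.5, exact permutation), and that of Id3 was 7.37 ± 1.49% and 5.78 ± 0.803% (p = 0.2, exact permutation). For Id1 it was 6.16 ± 0.935% and 5.21 ± 0.256%, with the KD libraries below the WT libraries and the smallest p the exact permutation test can give (p = 0.1). Within same-numbered pairs the Id4 share was higher in KD in 3 of 3 pairs, and the shares of Id1 and Id3 were lower in 3 of 3. An exact sign-flip test of 3 pairs gave p = 0.25 for each of these, the smallest it can give, so neither test could place a difference of these shares beyond the threshold. Because these are bulk libraries, more cells that contain Id4 and more Id4 RNA per cell cannot be told apart, and the same holds for each gene described here.

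**Figure D2:**
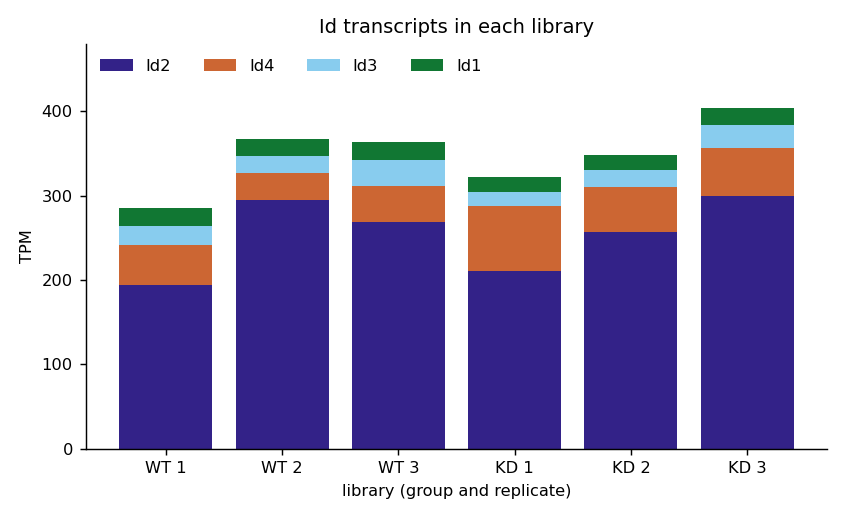
Summed level of the 4 Id transcripts in each library, in TPM (linear axis from 0), divided by gene. Id2 forms the largest part of each bar, and the sums of 285 to 368 TPM in WT overlap those of 322 to 404 TPM in KD.

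The 2 ligands differed in level. Bmp7 (Entrez 12162, chromosome 2, 172868012 to 172940321), a secreted ligand known in meninges and dorsal midline, had 15.11, 13.52 and 11.90 CPM in WT and 8.90, 7.69 and 7.03 CPM in KD. The highest KD library was below the lowest WT library. Its mean fell from 13.51 ± 1.61 to 7.87 ± 0.946 CPM, or to 0.583 times the WT level, with a log2 fold change of -0.78 ± 0.13 (adjusted p = 0.00459, edgeR). The 3 numbered pairs differed by -0.76, -0.81 and -0.76. It was called in 17 of 18 alternatives, with log2 fold changes from -0.88 to -0.62, and the exception was the fit without the libraries numbered 2 (-0.76, adjusted p = 0.0959). Bmp4 (Entrez 12159, chromosome 14, 46383525 to 46390669), a ligand of the dorsal midline, was represented by 8, 2 and 4 counts in WT and by 5, 5 and 6 in KD. Summed counts of 14 and 16 gave a ratio of 1.12, with an exact 95% interval from 0.514 to 2.49 that covers counting error only, and a difference was not detectable at this depth.

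Bmpr1a (Entrez 12166, chromosome 14, 34411061 to 34503336) encodes a type I receptor through which Bmp2 and Bmp4 act. It had 44.4, 44.8 and 58.1 CPM in WT and 69.9, 70.4 and 69.4 CPM in KD. The KD libraries were nearly equal to each other and all were above the WT libraries, of which replicate 3 was the highest. The mean rose from 49.1 ± 7.81 to 69.9 ± 0.504 CPM, 1.42 times, with a log2 fold change of 0.51 ± 0.10 (adjusted p = 0.00718, edgeR). It too was called in 17 of 18 alternatives, from 0.44 to 0.65, and not without the libraries numbered 2 (0.44, adjusted p = 0.124). In TPM it moved from the fifth place among the 10 genes in WT, where it overlapped Id1, to place 3 in KD, above Id1 but overlapping Id3, with 18.7 ± 3.21 TPM in WT and 27.5 ± 0.630 TPM in KD.

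Of the inhibitors inside the cell, Smad7 (Entrez 17131, chromosome 18, 75367365 to 75395935), which blocks Smad activation by Bmp and TGF-beta receptors, had 5.22, 5.93 and 6.54 CPM in WT and 8.06, 7.93 and 8.36 CPM in KD. All KD libraries were above the WT libraries, with a smaller spread. Its mean rose from 5.89 ± 0.660 to 8.12 ± 0.223 CPM, 1.38 times, with a log2 fold change of 0.46 ± 0.13 (adjusted p = 0.0292, edgeR). The numbered pairs differed by 0.63, 0.42 and 0.36 on the log2 scale. With the replicate block the value was 0.46 ± 0.13 (adjusted p = 0.0119, edgeR). In fits without the block the call was fragile. It was held in 10 of 18 alternatives (adjusted p from 0.0119 to 0.190), and was lost with DESeq2 (adjusted p = 0.0712), in limma on log2(TPM + 1) with no filter (0.0533) and with WT replicate 1 (0.0867) or 2 (0.0842) or KD replicate 1 (0.0631), 2 (0.0749) or 3 (0.0755) left out, although the log2 fold change stayed between 0.38 and 0.54.

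Smad6 (Entrez 17130, chromosome 9, 63953076 to 64022085), which mainly inhibits Bmp receptors, lay near the limit of detection, with 3, 2 and 1 counts in WT and 5, 11 and 12 counts in KD. Each KD library had more counts than each WT library. Summed counts of 6 and 28 gave a ratio of 4.59, with an exact 95% interval from 1.87 to 13.6 for counting error only. The filter on low counts left it out of the test. When all genes were kept, its adjusted p was 0.0298 (edgeR, log2 fold change 2.14), whereas DESeq2 gave an unadjusted p of 0.0218 and set no adjusted value. In limma on log2(TPM + 1) with no filter it was called too (adjusted p = 0.0391). It passed the filter in 4 of the fits that leave out a library, and was called without KD replicate 1 (adjusted p = 0.0258) but not without WT replicate 1 (0.0518), 2 (0.0939) or 3 (0.0788). An exact permutation test of the 6 libraries gave p = 0.1, the smallest possible.

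Nog (Entrez 18121, chromosome 11, 89300638 to 89302559) had 5.71, 5.37 and 4.86 CPM in WT and 6.67, 6.22 and 5.82 CPM in KD. The lowest KD library was just above the highest WT library, and the numbered pairs differed by 0.23, 0.21 and 0.26 on the log2 scale. With means of 5.31 ± 0.427 and 6.24 ± 0.427 CPM, the log2 fold change of 0.23 ± 0.13 did not pass the threshold (adjusted p = 0.228, edgeR, 95% interval from -0.06 to 0.53), nor did it under any of 18 alternatives. By TPM the WT order of the genes other than the Id genes was Bmpr1a, Bmp7, Nog, Smad7, Bmp4 and Smad6, and Bmp4 and Smad6 overlapped. In KD, Nog at 7.91 ± 0.637 TPM stood above Bmp7 at 4.81 ± 0.633 TPM, whereas in WT the order was the reverse, at 6.48 ± 0.470 and 7.94 ± 0.898 TPM.

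**Figure D3:**
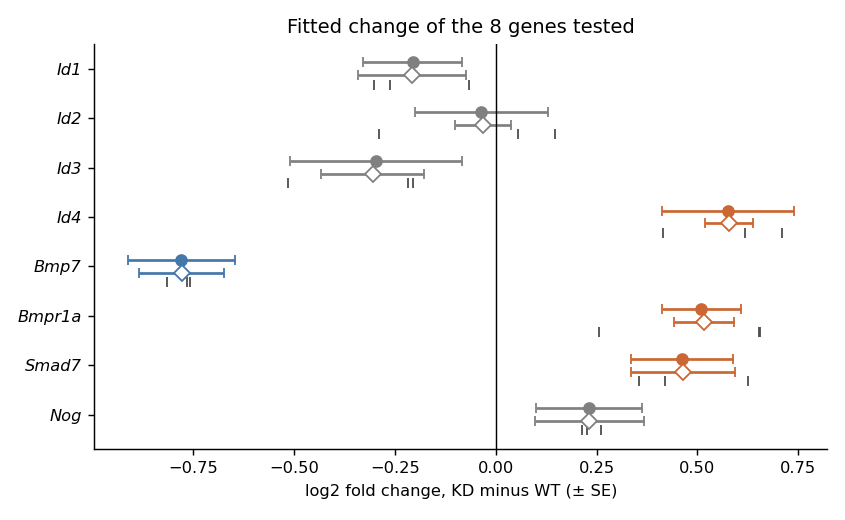
Log2 fold change (KD minus WT) of the 8 genes tested, with bars for ± 1 SE from the edgeR fit without (filled circles) and with (open diamonds) the replicate block, and small ticks for the 3 same-numbered pairs of libraries; orange and blue mark genes higher and lower at an adjusted p of 0.05, grey the rest. By the circles, Bmp7 is at -0.78, Smad7, Bmpr1a and Id4 are at 0.46 to 0.58, and Id1, Id2, Id3 and Nog lie between -0.30 and 0.23.

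**Figure D4:**
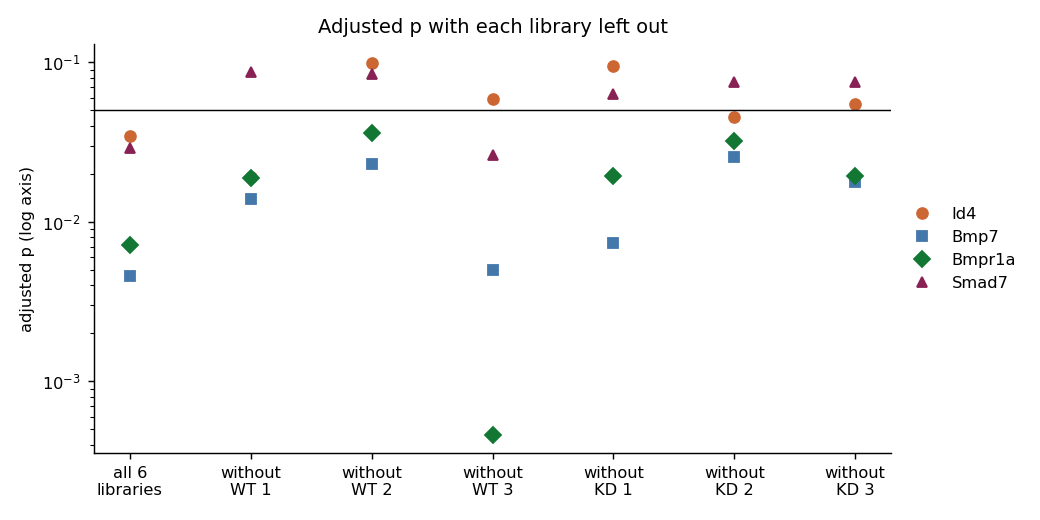
Adjusted p (log axis) of Id4, Bmp7, Bmpr1a and Smad7 with all 6 libraries and with each library left out in turn; the horizontal line is the threshold of 0.05. Bmp7 and Bmpr1a stay under the line in all of these fits, while Id4 and Smad7 cross it when any of several libraries is left out.

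Other genes of the pathway were read from 6 lists by role. As a scale for these lists and the marker lists below, 12% of all genes tested were higher and 11.9% lower without the replicate block. Whether any list differed from these shares was not tested. Of 17 other ligands of the TGF-beta family, 12 were tested, 1 was higher and none lower, with a median log2 fold change of 0.10. The higher one was Bmp6, which went from 3.06 ± 0.717 to 5.05 ± 0.928 CPM (log2 0.72 ± 0.21, adjusted p = 0.0390, edgeR). Its adjusted p was over the threshold with WT replicate 1 (0.0995) or 2 (0.111) or KD replicate 1 (0.0813) or 3 (0.114) left out. The fit with the replicate block, which called 36.6% of all genes tested, called 4 ligands higher and 1 lower, Gdf1 among the 4. Gdf1 is uncertain: its counts, 21, 0 and 63 for WT against 667, 604 and 0 for KD, were fractional in 4 libraries. It overlaps the gene Cers1, and whether reads were divided between the genes was not tested. Without it, 11 ligands were tested, 1 was higher, the median was 0.08, and the block called 3 higher and 1 lower.

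Of 16 other receptors and co-receptors, 13 were tested. Tgfbr1, the type I receptor of TGF-beta, was the 1 that passed, and it rose from 25.1 ± 3.27 to 43.2 ± 0.922 CPM (log2 0.78 ± 0.09, adjusted p = 8.68e-04, edgeR). None was lower and the median of the list was 0.16. With the replicate block, which called 36.6% of all genes tested in either direction, 7 were higher and none lower. Among 15 Smads and their regulators, all tested, 4 were higher and 1 lower, with a median of 0.05. Smad5, which carries Bmp signals, rose from 64.9 ± 2.98 to 87.2 ± 11.4 CPM (log2 0.43 ± 0.09, adjusted p = 0.0109, edgeR), but not without WT replicate 2 (0.0523). Smad2, which carries TGF-beta and activin signals, rose from 80.9 ± 3.92 to 97.5 ± 1.88 CPM (0.27 ± 0.05, adjusted p = 0.00832, edgeR). Zfp423, a Smad partner, went from 15.8 ± 1.91 to 22.2 ± 3.38 CPM (0.49 ± 0.13, adjusted p = 0.0263, edgeR), a call lost when WT replicate 2 (0.0953) or either of KD replicates 1 (0.0731) and 2 (0.0510) was left out. Smurf1, a ubiquitin ligase that marks Smads and receptors for degradation, fell from 137 ± 2.65 to 114 ± 2.18 CPM (-0.27 ± 0.04, adjusted p = 0.00416, edgeR).

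Of 22 extracellular antagonists and modulators 20 were tested, with 4 higher, 1 lower and a median of 0.15. With the replicate block, which called 36.6% of all genes tested in either direction, 8 were higher and 3 lower. The steadiest was Twsg1, a secreted Bmp-binding protein, which rose from 33.8 ± 0.754 to 60.9 ± 1.68 CPM (log2 0.85 ± 0.05, adjusted p = 1.39e-04, edgeR). Bambi, a decoy receptor that is itself a Bmp target, went from 3.47 ± 0.635 to 6.10 ± 1.2995 CPM (0.81 ± 0.21, adjusted p = 0.0223, edgeR). It was not called with WT replicate 1 (0.0587) or 2 (0.0691) or KD replicate 2 (0.0848) or 3 (0.0626) left out. Fst (follistatin), which binds activins, went from 11.5 ± 1.48 to 15.3 ± 0.505 CPM (0.41 ± 0.11, adjusted p = 0.0300, edgeR), not held when WT replicate 2 (0.0844) or any of KD replicates 1 (0.0778), 2 (0.0696) and 3 (0.0729) was left out. Dand5, a secreted antagonist of TGF-beta family ligands, fell from 8.47 ± 0.968 to 5.53 ± 0.630 CPM (-0.61 ± 0.14, adjusted p = 0.0154, edgeR), and was not called when WT replicate 2 (0.0525) or either of KD replicates 2 (0.0637) and 3 (0.0511) was left out.

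Other transcripts known as Bmp targets numbered 12, of which 8 were tested, 2 were higher and none lower, with a median of 0.22. Ccn1, a matricellular protein, had 6.90 ± 0.519 and 8.94 ± 0.325 CPM in WT and KD (log2 0.37 ± 0.11, adjusted p = 0.0425, edgeR), and the transcription factor gene Hey1 had 23.6 ± 1.95 and 28.1 ± 1.24 CPM (0.25 ± 0.08, adjusted p = 0.0476, edgeR). For both, the call was lost with DESeq2, with upper quartile scaling (0.0530 and 0.0682), with no filter (0.0534 and 0.0522) and without any 1 library other than WT replicate 3, at adjusted p from 0.0833 to 0.123 for Ccn1 and from 0.0773 to 0.159 for Hey1.

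Because Id proteins act by binding E proteins, these and a list of bHLH factors were read as well. The list is not limited to partners of E proteins and includes Hes1, Hes5 and Hes6. Of 17 such genes, 14 were tested (Atoh1 was not analysed here), with 7 higher, 1 lower and a median log2 fold change of 0.42. Neurog2, a proneural factor of the dorsal cortex, rose from 5.61 ± 1.46 to 16.8 ± 2.33 CPM (log2 1.58 ± 0.18, adjusted p = 9.02e-04, edgeR). Neurod1, which acts after it, rose from 15.4 ± 3.81 to 28.6 ± 0.721 CPM (0.90 ± 0.15, adjusted p = 0.00371, edgeR). Olig1, of the oligodendrocyte lineage, fell from 197 ± 27.6 to 135 ± 16.6 CPM (-0.54 ± 0.11, adjusted p = 0.0105, edgeR). Of the E proteins, which are given here after their values were seen, Tcf3 rose from 67.8 ± 4.10 to 87.8 ± 6.75 CPM (0.37 ± 0.07, adjusted p = 0.00681, edgeR). The log2 fold change was 0.23 ± 0.09 for Tcf4 (adjusted p = 0.0990, edgeR, or 0.00255 with the replicate block) and 0.05 ± 0.08 for Tcf12 (adjusted p = 0.675, edgeR). Of the called genes described from the 6 lists, Tgfbr1, Twsg1 and Neurog2 passed under each of the 18 alternatives, with adjusted p of at most 0.0405, 0.0295 and 0.0387, and the others were not called without the libraries numbered 2.

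**Figure D5:**
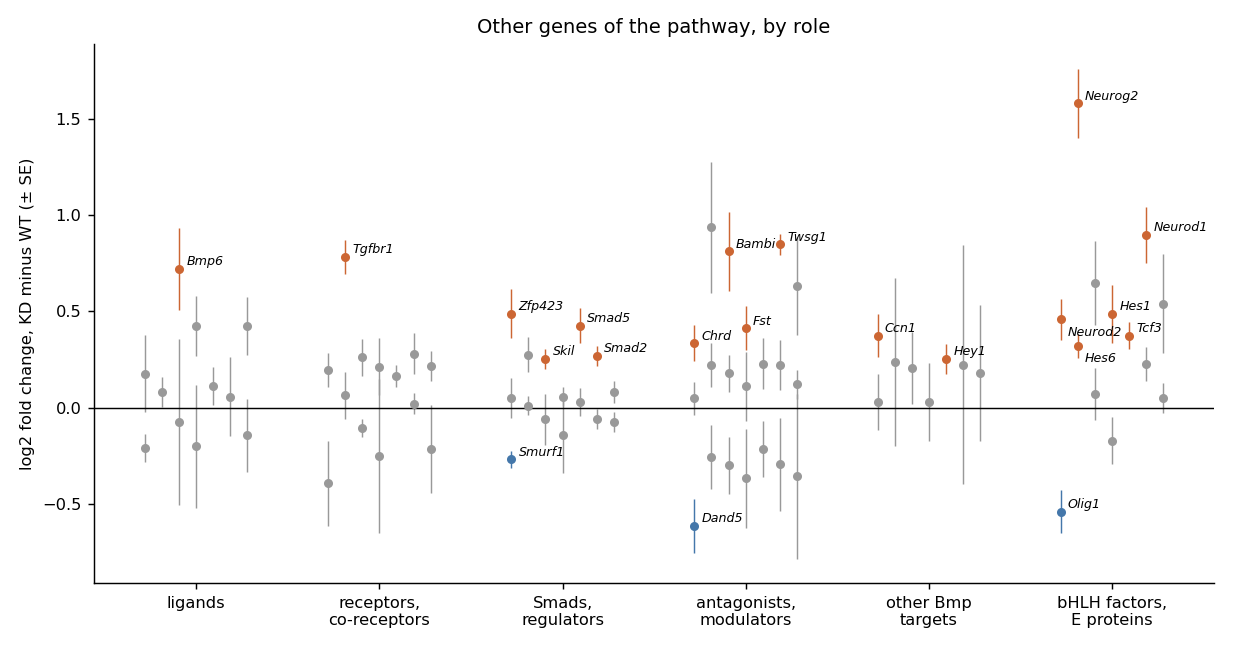
Log2 fold change (KD minus WT) of genes tested in the 6 lists, with bars for ± 1 SE; orange and blue mark genes higher and lower at an adjusted p of 0.05, grey marks the rest, and Gdf1 is not drawn. Tgfbr1, Twsg1 and Neurog2 are the highest called genes of their lists at 0.78, 0.85 and 1.58.

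Marker genes of the cells that use this pathway were read beside these values. The markers of radial glia, which express Id genes, summed to 1395 to 1534 CPM in WT and 1472 to 1684 CPM in KD, with 1 of 8 higher (Pax6). Fabp7 alone gave 608 ± 42.5 CPM of this in WT and 627 ± 16.9 CPM in KD. The highest sum was that of KD replicate 1, the library that was also highest in Id4. The lowest sum was that of WT replicate 1, the WT library that was highest in Id4. Markers of intermediate progenitors summed to 61.3 to 74.8 CPM in WT and 130 to 163 CPM in KD, and all 4 that were tested were higher, one of them Neurog2, which is also on the bHLH list. Oligodendrocyte lineage markers summed to 399 to 542 CPM in WT and 343 to 444 CPM in KD, with 2 of 7 lower (Olig1 and Cspg4). For neuron markers the sums were 4123 to 4733 and 4309 to 4863 CPM, with 1 of 7 higher (Dcx), and for astrocyte markers 393 to 477 and 417 to 463 CPM, with none of 5 called. The part of these cell types in the changes of Id4, Bmpr1a and the bHLH genes was not tested.

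Cortical hem and choroid plexus, which are sources of Bmp ligands, were represented by 9 marker genes whose sum was 10.2 to 10.8 CPM in WT and 13.7 to 17.3 CPM in KD. Otx2 was the 1 of 3 tested that was higher, while Ttr, the defining choroid plexus transcript, had at most 1 count in any library. Its part in the values of Bmp6 or Bmp7 was not tested. Endothelial cells express Id1, Id3 and Smad6 strongly. Their 9 markers summed to 2.86 to 4.31 CPM in WT and 2.30 to 3.91 CPM in KD, none of the 3 tested was called, and Cldn5 had 1 count in WT replicate 1 and 0 in the other 5 libraries. Meningeal fibroblast markers, of which 3 of 7 were tested and none called, summed to 72.5 to 132 CPM in WT and 81.5 to 113 CPM in KD, nearly all of it Pdgfra, a gene also of oligodendrocyte precursors. Pericyte markers summed to 21.5 to 24.7 and 19.6 to 22.7 CPM, with Pdgfrb higher and Cspg4 lower, and those of microglia to 1.67 to 3.22 and 1.70 to 2.52 CPM. No marker gene was at 0 in all 6 libraries.

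The genes whose log2 CPM over the 6 libraries followed each Id gene most closely, among 11438 genes of at least 5 CPM, are given as a description, since the libraries share their groups and replicate numbers. For Id4 they were Pcdhgc4 (Pearson r = 0.993), Pank2 (0.993) and Cdh4 (0.992). Id3 was followed by Crhr1 (0.993), Fasn (0.987) and Gda (0.984), and Id1 by Cby1 (0.995), Pip4k2a (0.991) and Kcnf1 (0.990). For Id2 the closest were Kcnj3 (0.971), Atic (0.968) and Tmem50b (0.968). The 4 Id genes had no gene in common among these.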

How the data were processed

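RNA-seq of 6 libraries was used, 3 WT and 3 KD, grouped and numbered by the sample titles; the data columns call the controls Ctrl. The titles name cortex and the series text a deletion, whereas the methods describe knockdown in cultured cells. The authors extracted RNA with Trizol and sequenced on the DNBSEQ platform. The submitters' processing notes name HISAT2 2.2.1, Bowtie2 2.4.5 and RSEM 1.3.1 and the builds GRCm38 and mm10, without their roles. The expected counts deposited by the authors, estimated per gene, were fractional for some genes, since 89.3% to 89.9% of values in a library were whole (within 0.001), but they were whole for all 10 genes of interest. The TPM values deposited by the authors are relative to transcript length and library total. Deposited FPKM values (6 columns, by the authors) and group means (6 columns) were not used.

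The expected counts were rounded and tested in R 4.3.3 with edgeR 4.0.16 (TMM scaling, filterByExpr with a minimum count of 10, quasi-likelihood F-test, two-sided), with Benjamini-Hochberg adjustment over 13669 genes and a threshold of 0.05. CPM are rounded counts divided by the TMM-scaled library size. SE was obtained from the log2 fold change and the F statistic (its size over the root of F). Exact permutation tests used all divisions of the 6 libraries. Intervals for summed counts are exact and cover counting error only. Alternatives were DESeq2 1.42.0, limma 3.58.1 (voom on counts, trend on log2(TPM + 1) or log2(TPM + 0.1)), other scalings and filters, a threshold of 0.01, a replicate block, and leaving out libraries. Leaving out both libraries numbered 2, leaving Gdf1 out of its list and pairing the Id shares were chosen after seeing the data. The edgeR step was tested on simulated data.

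Deviations from the group mean had a positive correlation between same-numbered WT and KD libraries (r = 0.351, 0.320 and 0.178) and a negative one between others (-0.276 to -0.018). Because deviations were taken from the group mean, these r are not independent of each other, and they were not tested. On this description the numbers were taken to pair the libraries. The series text mentions 3 sequencing batches without tying numbers to them. Replicates differed by 4.43 to 8.66 chi-square per degree of freedom, beyond sampling noise. The series text calls the replicates biological, but whether they came from separate cultures is not stated, so p-values measure the spread between these libraries.

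The 10 genes and the gene lists were chosen with earlier results of these data known. All 10 genes were named; of each pathway list, at most 4 called genes with the largest log2 fold change; for each Id gene, the 3 genes with the highest Pearson r. The values of 1 gene that this rule names are not reported here or drawn. Gene positions and promoters are from RefSeq, GRCm38.p6.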

Additional observations from a re-analysis of the deposited data

How the results depend on the processing

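Bmp7 and Bmpr1a kept direction and call in 17 of 18 alternatives, Id4 in 11 and Smad7 in 10. Where they did not, the cause was not tested. With the replicate block, 2539 genes were higher and 2470 lower (1646 and 1631 without it), and none of the calls of the 10 genes changed. DESeq2 and the threshold of 0.01 each left 1 of the 8 genes higher, and at 0.01 the counts over all genes were 629 and 634. On log2(TPM + 1), log2(TPM + 0.1) and log2(TPM + 1) with no filter, 1072, 1063 and 861 genes were lower. There 65.9%, 66.1% and 65.6% of calls were higher, against 50.2% in the main fit, while the median of all genes moved by at most 0.053. Leaving out single libraries gave 779 to 1612 genes higher, 797 to 1583 lower and 1 to 2 of the 10 genes higher (1 lower in each), with Smad6 among the 2 without KD replicate 1. Without both libraries numbered 2 the counts were 135 and 93. None of the 8 genes then passed with edgeR, 0 higher and 0 lower. The log2 fold changes in that fit were 0.53 for Id4, 0.44 for Bmpr1a, 0.48 for Smad7 and -0.76 for Bmp7. No other tool was run on that pair of replicates. The small Id2 difference reversed on the 3 TPM scales (0.026 each), without WT replicate 2 (0.10), WT replicate 3 (0.0003) or KD replicate 1 (0.09), and without both libraries numbered 2 (0.11), and its lowest value was -0.19, without WT replicate 1. That of Tcf12 reversed without WT replicate 3 (-0.0094) and KD replicate 1 (-0.013). Depth limits Bmp4 and Smad6, which had at most 12 counts in a library.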
